A study of Mus musculus with 3 samples.

Results

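Promoters of the genes that build the general transcription machinery were examined as viewpoints of a high-resolution promoter contact map in mouse erythroid cells. A viewpoint is a DpnII fragment at a promoter that was pulled down with biotinylated probes after digestion and ligation of chromatin in nuclei (nuclear-titrated Capture-C). The viewpoints were taken by name, as those with a part of the name that begins with Med and a digit, Polr1, Polr2, Polr3, Gtf2, Gtf3, Taf and a digit, or Supt and a digit. This rule gave 101 of 7181 viewpoints whose name was listed for a single fragment, and it used no measured value. Of these 101 fragments, 95 held the annotated start of the gene that named them and 24 carried a name that joins several genes. The Taf6l fragment was the farthest from its gene start, at 2194 bp.

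The cells were ter119+ erythroid cells selected from spleens of F1 hybrid mice of a C57BL/6-cross-CBA/J cross after phenylhydrazine, a drug that lyses red cells and fills the spleen with CD71+ ter119+ precursors. It was given as 3 doses at intervals of 12 hours, and spleens were taken on day 5. Whether spleens of several mice were pooled in a library is not given in the sources used here. The 3 libraries form 1 group, with no control group and no second cell type, so every comparison was made between distances, regions or viewpoints within these libraries. The spread between libraries may therefore be technical in part. Value columns were unnamed, so a, b and c below stand for their order in the table. Over 5 kb windows of the machinery viewpoints, the chi-square per window for b against c was 0.740 in the closest class of distance (2.5 to 10 kb), 0.914 in the middle class (10 to 100 kb) and 1.03 beyond it (up to 1 Mb), while sampling alone would give about 1. For a against b it was 1.12, 1.07 and 1.16. The study's methods treat the libraries as independent. Because b and c differed by no more than about sampling noise, which does not show that they are a single library, their mean was counted as 1 replicate. A mean ± SD with n = 2 is thus taken between a and that mean, and it leaves out the difference between b and c, which can be the larger of the differences.

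RNA polymerases I, II and III share a set of small subunits and each add their own large catalytic subunits. Polymerase II needs the factors TFIIA, TFIIB, TFIID, TFIIE, TFIIF and TFIIH to start at a promoter, and Mediator, a large complex with head, middle, tail and kinase modules, passes signals from bound activators to it. SL1 and TFIIIC recruit polymerases I and III, and the Supt proteins serve in elongation (DSIF, Supt6, Supt16) or in the SAGA coactivator complex. Many of these genes are used in nearly every cell type, but the members were taken by name and their expression was not examined here.

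Bait fragments differed widely in size, and the shortest are printed to show how little sequence can serve as a viewpoint. They are given on the forward strand of mm9, with the DpnII sites at the ends in capitals.
Med1_b, chr11:98054604-98054699: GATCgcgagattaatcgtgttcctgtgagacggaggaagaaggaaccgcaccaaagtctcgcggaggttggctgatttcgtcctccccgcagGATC
Polr2l_Tspan4, chr7:148661016-148661125: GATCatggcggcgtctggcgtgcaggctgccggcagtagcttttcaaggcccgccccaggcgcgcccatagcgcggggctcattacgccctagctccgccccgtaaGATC
These fragments gave 3868 and 1787 events in the sum of the libraries, below the medians of 8528 over the members and 6481.5 over all viewpoints. The paper reports that short viewpoints tended towards more contacts with other chromosomes, which are not among the values used here. Over all machinery viewpoints the median fragment length was 767 bp, beside 742 bp over all viewpoints, with a range from 92 to 3773 bp between the cut sites.

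The called contact of the machinery promoters with the most events lay in an intergenic stretch upstream of Gtf3c6, a subunit of TFIIIC, and 4 of its fragments of at most 300 bases, those of that size with the most events (14 to 18 each), are shown as examples of its sequence. They hold 66 of the 284 events of the contact, and a longer fragment held up to 22. They are on the forward strand of mm9 with DpnII sites in capitals.
chr10:40241753-40241991: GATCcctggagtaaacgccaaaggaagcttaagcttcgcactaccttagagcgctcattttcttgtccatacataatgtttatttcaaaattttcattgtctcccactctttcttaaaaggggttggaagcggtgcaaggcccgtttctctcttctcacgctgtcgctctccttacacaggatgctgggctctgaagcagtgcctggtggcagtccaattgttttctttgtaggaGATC
chr10:40244282-40244518: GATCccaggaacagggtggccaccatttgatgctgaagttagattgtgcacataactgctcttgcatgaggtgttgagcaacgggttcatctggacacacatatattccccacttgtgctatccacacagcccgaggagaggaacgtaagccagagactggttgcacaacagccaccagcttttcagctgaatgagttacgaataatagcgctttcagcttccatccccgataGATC
chr10:40245694-40245932: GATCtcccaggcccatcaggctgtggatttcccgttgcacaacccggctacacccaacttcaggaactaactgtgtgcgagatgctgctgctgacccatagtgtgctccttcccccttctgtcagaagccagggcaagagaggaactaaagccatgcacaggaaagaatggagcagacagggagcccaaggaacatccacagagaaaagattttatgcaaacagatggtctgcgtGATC
chr10:40245983-40246275: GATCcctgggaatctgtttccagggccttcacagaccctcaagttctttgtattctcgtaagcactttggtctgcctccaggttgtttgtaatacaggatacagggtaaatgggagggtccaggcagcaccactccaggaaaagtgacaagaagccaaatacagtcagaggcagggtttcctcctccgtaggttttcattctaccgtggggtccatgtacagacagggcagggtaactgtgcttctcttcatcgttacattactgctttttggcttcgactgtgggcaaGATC
No match to CCNNNAGNNGGC, the core of the motif bound by CTCF, or to the GATA motifs AGATAA and TGATAA was found on either strand of these fragments. Among 719223 fragments of 200 to 300 bp that were listed as contacts and not captured, 3.21% held the first, 15.2% the second and 15.3% the third. The absence of these letters from 4 fragments says nothing of the rest of the stretch or of the factors.

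The first comparison asked how deeply the machinery promoters were sampled. Their median number of cis events, meaning unique ligation events with another fragment of the same chromosome, was 1836, 3439 and 3359 in a, b and c. Over all viewpoints with contacts the medians were 1377, 2561.5 and 2532. The machinery promoters were thus deeper in each library, and the ratio of medians was 1.33 in a, 1.34 in b and 1.33 in c. With the libraries summed, 99 of the 101 had at least 1000 events, or 98.0%, beside 93.6% of all viewpoints. In that sum the members had a median of 8528 events and all viewpoints 6481.5. The 46 viewpoints of other genes of this pathway, described below, had a median of 6239. The greater depth is therefore shown for the members taken by name only. Together the members hold 268318, 510376 and 508832 events in a, b and c.

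Depth varied widely among the members, from 714 to 107459 events. The deepest were Gtf2a2, the small subunit of TFIIA, with 20762, 42932 and 43765 events in a, b and c, and Taf1, the largest subunit of TFIID, with 23794, 41197 and 41287. They were followed by Taf9b (11647, 23589 and 22970), a TFIID subunit, by Med12 (11559, 22206 and 22038), which activates the Mediator kinase, and by Med14_Gm14634 (11335, 21693 and 22033), whose product is the backbone of Mediator. All 5 lie on chromosome X or between 50 and 100 Mb of chromosome 9, where viewpoints of the whole series were deep. Off those stretches the median of the members was 8293.5 events, against 58206 on them. Without those stretches the ratio of medians to all viewpoints was 1.33.

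The shallowest member was Polr3d_Mir320, for a polymerase III subunit, with 150, 287 and 277 events. Gtf3c3, a TFIIIC subunit, had 171, 297 and 274 events. These viewpoints fell below the minimum of 1000 events and were not tested for contacts. The next were Med4 of the Mediator middle with 251, 388 and 381 events, Med26, which links Mediator to elongation factors, with 275, 448 and 453, and Supt20 of SAGA with 293, 502 and 478. Expected counts per window are low for these viewpoints, so their ratios to expectation rest on few events.

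**Figure D1:**
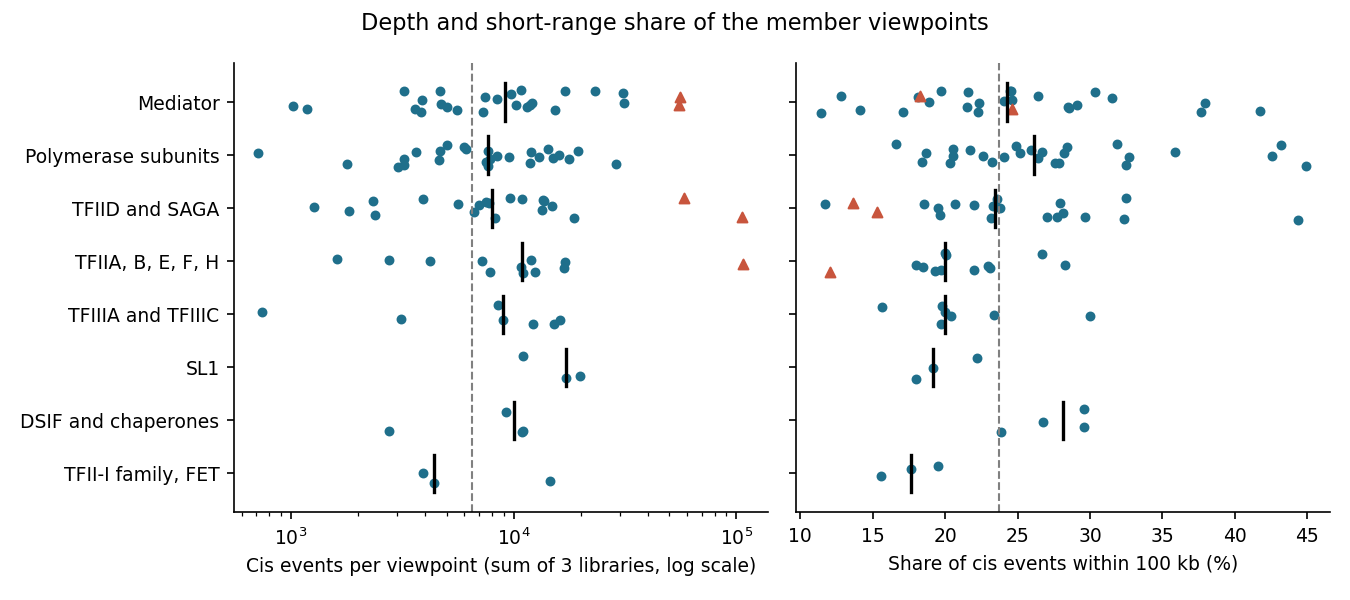
The left panel plots cis events per machinery viewpoint in the sum of 3 libraries on a log axis, and the right panel the percentage of those events within 100 kb, by complex. Each point is a viewpoint (triangles are those on chromosome X or the deep stretch of chromosome 9), bars are medians of the complex, and dashed lines are the medians of all viewpoints, 6481.5 events and 23.7%.

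The complexes overlapped in depth. The 26 Mediator viewpoints, for 25 genes, had a median of 9111 events and a range of 1020 to 55803. The 26 polymerase viewpoints had a median of 7671.5 and ranged from 714 to 28712. The 20 viewpoints of TFIID and SAGA had a median of 7968, and the 12 of TFIIA, TFIIB, TFIIE, TFIIF and TFIIH a median of 10911.5. The 7 viewpoints of TFIIIA and TFIIIC had a median of 8977, the 3 of SL1 a median of 17182 and the 4 of DSIF and the elongation chaperones a median of 10069. The TFII-I family with Taf15, 3 viewpoints in all, had the lowest median, 4392.

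Among the catalytic and backbone subunits, Polr2a, the large catalytic subunit of polymerase II, had 1836, 2945 and 2874 events, while its partner in Noa1_Polr2b had 1393, 2302 and 2283. The polymerase III pair differed more, with 1075, 1790 and 1811 events for Polr3a and 2582, 5269 and 5159 for Polr3b. For polymerase I, Ptcd3_Polr1a had 2951, 8057 and 8398 events and Polr1b had 571, 1261 and 1206. Med17, the scaffold of the Mediator head, had 1882, 4508 and 4400. Med1, the middle subunit bound by nuclear receptors, was captured on 2 fragments, with 1851, 2780 and 2821 events for Med1_a and 926, 1412 and 1530 for Med1_b. Gtf2b, which positions polymerase II at the start site, had 639, 1098 and 1023 events. The elongation factors Supt5, Sdf2_Supt6 and Supt16 had 10896, 2743 and 10977 events in the sum of the libraries. Med13 was not analysed here.

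The second comparison asked how contacts of these promoters fall with distance. The machinery had a decay slope of -0.87 ± 0.0359 (SD, n = 2), fitted as log10 mean count per fragment on log10 distance between 10 kb and 1 Mb, and all viewpoints had -0.86 ± 0.0309 (SD, n = 2). For the members it was -0.90, -0.85 and -0.85 in a, b and c. Within each library the members' slope minus that of all viewpoints was small and below 0, at -0.012, -0.0052 and -0.0049. Without the members on chromosome X and the deep stretch of chromosome 9, the members' slope moved from -0.871 to -0.887, by more than these differences. The slope of all viewpoints without those stretches was not computed. When each viewpoint was scaled to the same total, both slopes were steeper, at -0.93 for the members and -0.92 for all viewpoints.

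**Figure D2:**
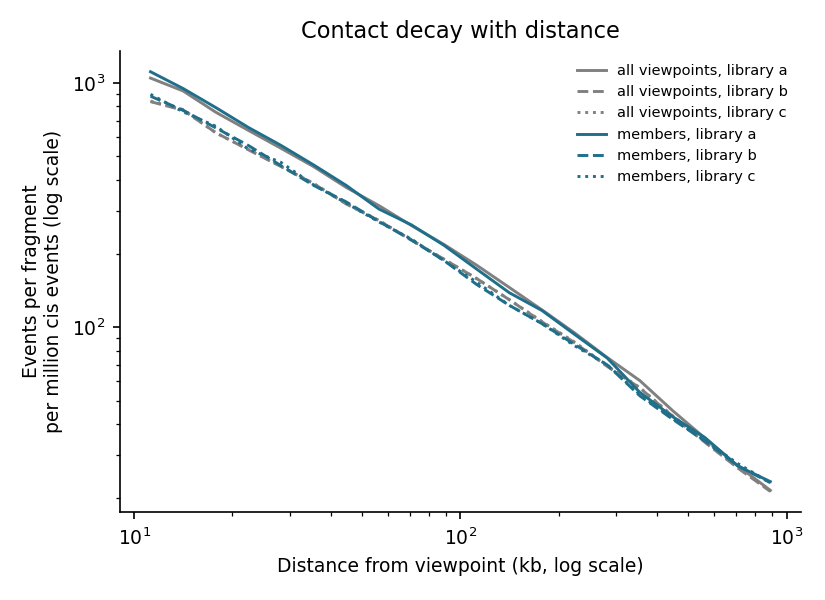
Mean events per fragment, scaled to equal cis totals, are plotted against distance from the viewpoint, both on log axes, for the machinery viewpoints and all viewpoints in libraries a, b and c. Library a lies above libraries b and c at short range in both sets, and the curves of the members lie close to those of all viewpoints, with slopes of -0.87 and -0.86.

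Of the cis events of the machinery viewpoints, 1.31% ± 0.271 (SD, n = 2) fell closer than 2.5 kb. The next class, out to 10 kb, held 5.20% ± 0.855, and 15.3% ± 1.83 lay between 10 and 100 kb. Farther out, 19.6% ± 0.855 lay within 1 Mb, 23.0% ± 0.887 between 1 and 10 Mb and 35.6% ± 2.92 over 10 Mb away. Over all viewpoints these shares were 1.17%, 5.05%, 15.0%, 19.7%, 22.3% and 36.8%. The shares pool the events of a set, so deep viewpoints weigh more in them. Compared within a library, the members had the smaller share over 10 Mb in each, with differences of -1.22, -1.27 and -1.25 percentage points in a, b and c. Their share between 1 and 10 Mb was larger in each, by 0.756, 0.845 and 0.749 points, and so were their shares in the 3 classes under 100 kb, by 0.0839 to 0.335 points. Between 100 kb and 1 Mb the sign differed between libraries.

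Single promoters spread widely. Members were ranked by the share of events within 100 kb in the summed libraries, which was highest for Polr2l_Tspan4, a subunit shared by the 3 polymerases, with a mean of 45.8% ± 2.76 (SD, n = 2), and for Taf6l of SAGA, with 46.1% ± 4.88. Polr2g, of the polymerase II stalk, had 44.3% ± 3.06, Med20_Bysl of the Mediator head 43.2% ± 4.44 and Polr2e, another shared subunit, 43.1% ± 1.54, with 44.2%, 43.5% and 40.5% in a, b and c. The lowest shares were 12.1% ± 1.45 for Med6 of the Mediator head, 12.3% ± 1.22 for Taf7 of TFIID and 12.9% ± 1.96 for Gtf2a2. Med30 had 13.7% ± 1.68 and Taf9b 14.8% ± 2.72, a mean just above the 14.6% of Med31_4930563E22Rik, which follows it in the summed ranking. The lowest library of the upper set, Taf6l, Polr2l_Tspan4, Polr2g, Med20_Bysl and Polr2e, was at 40.0%, and the highest library of the lower set at 16.7%. The median over the members was 23.2% in the sum of the libraries, beside 23.7% over all viewpoints. By this median the members were the lower, the reverse of the pooled shares under 100 kb. The order of members is a description with no test. Their fragments also differed in length, with 106 bp for Polr2l_Tspan4, 276 bp for Polr2e, 1121 bp for Gtf2a2 and 1686 bp for Med6. The part of length or depth in the order was not tested.

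The third comparison took the direction of contacts relative to transcription. Between 2.5 kb and 1 Mb, 48.8% ± 0.235 (SD, n = 2) of the events of the machinery viewpoints lay upstream of the gene, and 48.7% of 497371 events did when libraries were summed (exact binomial 95% interval 48.6% to 48.9%, for counting error only). Over the 6612 viewpoints whose gene gave a strand the share was 49.4% in the sum. It was 49.3%, 49.4% and 49.4% in a, b and c, where the members had 49.0%, 48.6% and 48.7%. These shares pool events, so deep viewpoints weigh more, and the share without them was not computed. Among the deepest members, Gtf2a2 had 41.1% of 25485 events upstream and Taf9b 41.8% of 16912 in the summed libraries. Both draw the pooled share of the members down. Its distance from the share of all viewpoints is thus not shown for the members as a set. Med12, Med14_Gm14634 and Taf1 had 49.1%, 49.4% and 49.7%. For 43 members, or 42.6%, the interval of their own upstream share lay above 50%, for 42, or 41.6%, it lay below and for 16 it held 50%. Of all viewpoints with a strand 36.8% lay above and 45.2% below. Events of a viewpoint are not independent of the local genome, so these counts describe single loci.

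The most one-sided promoter was Polr3k, of polymerase III, with 83.0% of events upstream (95% interval 81.0% to 84.9%), but 87.8% of the fragments that could be counted also lay upstream. The upstream share of Taf1b of SL1 was 25.4% (24.3% to 26.5%), and 27.2% of its fragments lay there. For the others the fragments were nearly balanced. Med26 had 24.0% upstream (20.4% to 28.0%) with 46.2% of fragments, Taf4, a scaffold subunit of TFIID, had 74.3% (73.2% to 75.5%) with 52.4% of fragments, and Med7 of the Mediator middle had 71.7% (69.5% to 73.9%) with 52.4%. The contacts of Med26 thus lay mainly downstream and those of Taf4 and Med7 mainly upstream, beyond the balance of fragments.

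The fourth comparison asked where the machinery promoters met a region more often than its distance predicts. Counts in 5 kb windows at distances of 2.5 kb to 1 Mb were set against the mean of all viewpoints at that distance, scaled by the total of the viewpoint, in a negative binomial test adjusted by the Benjamini-Hochberg method over the windows of all viewpoints. A window was called at an adjusted p under 0.05 with more events than expected in each of the libraries. Of 39302 windows of the members, 21 were called, or 0.0534%, and they lay at 16 loci of 13 promoters. Over all viewpoints 1957 of 2660495 windows were called, or 0.0736%. The 13 promoters were 13.1% of the 99 tested, beside 15.9% of all 6718 viewpoints tested. The share of machinery windows called was below that of all viewpoints with 5 kb windows, and also with 2 kb windows (16 windows, 0.0165% against 0.0333%) and 10 kb windows (14 windows, 0.0708% against 0.106%), but above it with Poisson counts (6.33% against 5.59%). At an unadjusted p under 0.05 and above expectation in each library, with 5 kb windows and the negative binomial test, it was also above, at 4.33% against 3.87%. These differences were not tested.

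Without library a, b or c, 13, 12 or 9 windows were called, of which 11, 11 and 9 were among the 21. The 13, 12 and 9 windows were 0.0331%, 0.0305% and 0.0229% of those tested, beside 0.0580%, 0.0455% and 0.0427% over all viewpoints. Of the 21 windows, 4 stayed called without each library in turn, namely both windows of Gtf3c6, the farther Arrdc3 window of Polr3g and the window of Taf1c, and 17 lost their call without at least 1 library. The dispersion of the test was estimated without the top 0.1% of counts and then corrected for their absence. Uncorrected, it gave 48 called windows (0.122%, beside 0.154% over all viewpoints), and 8 (0.0204%, beside 0.0281%) when every count was kept. The windows called with every count kept were those of Gtf3c6, both Arrdc3 windows of Polr3g, the Alg5 window of Supt20, the nearer window of Ptcd3_Polr1a, the window of Med1_b and the nearer window of Med6. Scaling the expectation by fragment length ended the calls of 10 windows, namely the Kin window of Taf3, the Exosc8 window of Supt20, both windows of Ptcd3_Polr1a, the upstream window of Polr3g, the nearer window of Med6 and those of Med7, Med1_b, Rabl3_Gtf2e1 and Med20_Bysl. With single DpnII fragments in place of windows, the same negative binomial test called 0 of 430141 fragments of the members, with 5607, or 1.30%, at an unadjusted p under 0.05 and above expectation in each library, beside 1.17% over all viewpoints. Over all viewpoints 684 fragments, or 0.00237%, were called, and 4.41% of viewpoints had a called fragment. The p of these tests speaks for counting noise and the spread between viewpoints in the summed libraries, and the ratios to expectation given in brackets for a, b and c show how far the libraries lay apart.

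The Gtf3c6 promoter (chr10:39977429-39977754) had the contact with the most events. The window at chr10:40240000-40244999, 265 kb upstream, held 31, 63 and 59 events in a, b and c where 25.95 were expected in the sum, and the next window at chr10:40245000-40249999 held 28, 54 and 49 where 15.9 were expected. Both windows were above expectation in each library, by 5.17, 6.43 and 5.81 times for the first and 7.61, 8.99 and 7.86 times for the second. The negative binomial test gave adjusted p = 0.0127 and 0.000461. The annotation holds no gene in these windows, and the nearest start of a protein-coding gene, Slc22a16, lies 42.6 kb from the middle of the second. Both calls held under each of the 10 other settings in which these windows were tested. The stretch between this promoter and the contact was chosen for description after its values were seen, and the limits of the other stretches were set around the contact. The expectation is scaled to the viewpoint's total in range. An excess in a stretch must therefore be offset by fewer events than expected elsewhere. From 10 to 260 kb upstream, 44 of 50 windows were above expectation, with 2933 events where 2056 were expected, and from 280 to 700 kb upstream, beyond the contact, 17 of 85 were, with 630 events where 856 were expected. Farther out, from 700 to 1000 kb, the profile was again above expectation in 46 of 60 windows, with 449 events where 287 were expected. On the other side, from 10 to 260 kb downstream, 24 of 50 windows were above, with 1870 events where 2369 were expected.

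**Figure D3:**
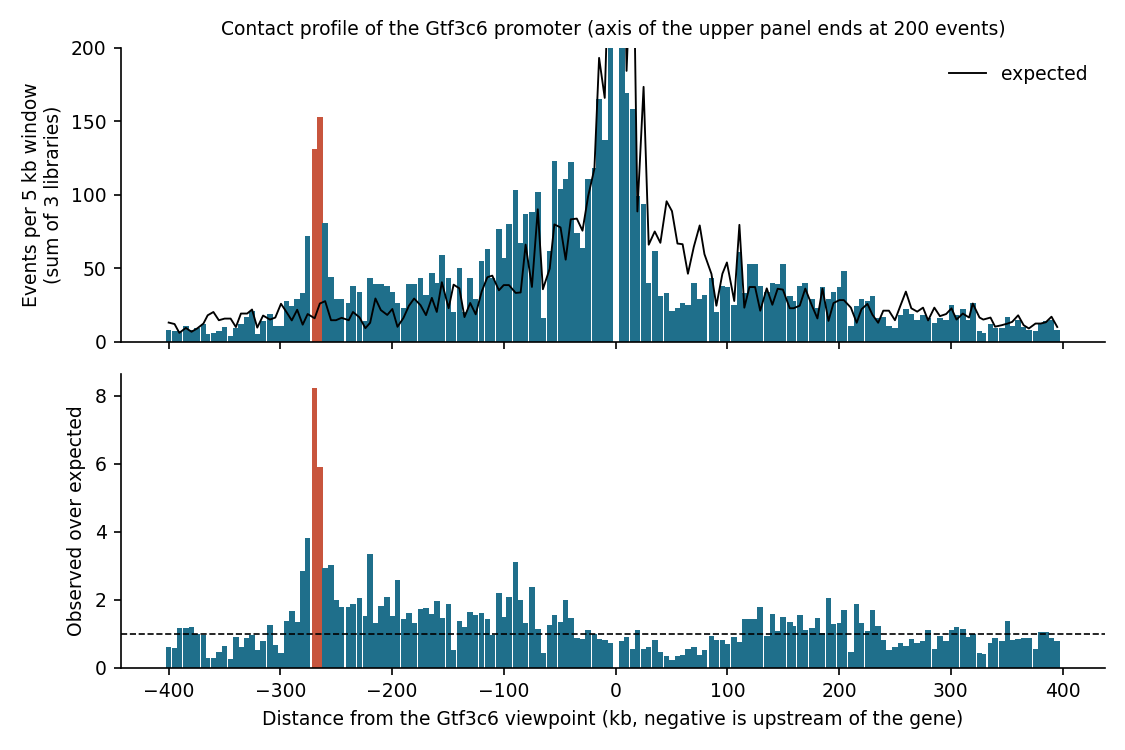
The upper panel plots events per 5 kb window in the sum of 3 libraries (bars) and the expected count (line), and the lower panel their ratio, within 400 kb of the Gtf3c6 viewpoint, with negative distances upstream of the gene. The axis of the upper panel ends at 200 events. The red bars are the called windows, which stand at 5.90 and 8.23 times expectation, and the tallest other bar of the lower panel stands at 3.83.

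Polr3g, a polymerase III subunit known from stem cells, made the contact with the highest ratio to expectation among the called windows of the members. Its promoter (chr13:81849657-81850342) met the window at chr13:81025000-81029999, 822 kb downstream, with 6, 11 and 6 events where 1.44 were expected (19.4, 19.1 and 10.9 times). The window beside it, at chr13:81030000-81034999, held 3, 7 and 7 events where 1.44 were expected (9.69, 12.1 and 12.7 times). Both windows lie over exons of Arrdc3, an arrestin-like gene, with its start 4.85 kb from the middle of the first. Another window, chr13:81915000-81919999, lay 67.3 kb upstream near the start of the centrin gene Cetn3, and it held 12, 27 and 30 events where 15.4 were expected (3.62, 4.37 and 5.08 times). In this order the negative binomial test gave adjusted p = 0.000365, 0.0134 and 0.0113. The first window was called without each library, the second not without library b or c, and the upstream window not without library c.

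Several contacts of the machinery were with windows that hold promoters of other genes. Captured fragments are not listed as contacts. In the windows that hold Kin_Atp5c1, Exosc8_Alg5, Wrn and Erh_Slc39a9, which were captured, the events thus lay on the other fragments. Taf3, a TFIID subunit that reads a histone mark of active promoters, met the window around the shared promoter of Kin and Atp5c1 at chr2:10000000-10004999, 32.7 kb upstream, with 15, 30 and 31 events where 16.9 were expected (3.25, 4.70 and 5.29 times). The next window, in Kin, held 17, 26 and 21 events where 15.0 were expected (4.13, 4.57 and 4.02 times). Kin encodes a DNA and RNA binding protein and Atp5c1 a subunit of ATP synthase. The negative binomial test gave adjusted p = 0.00885 and 0.0242, and the first call was lost without library c and the second without any of the libraries.

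Supt20 met the window around the shared start of Exosc8, an exosome subunit, and Alg5, an enzyme of protein glycosylation, at chr3:54535000-54539999, 39.6 kb downstream, with 7, 5 and 4 events where 2.67 were expected (9.51, 5.31 and 4.02 times). The window in Alg5 next to it held 4, 9 and 7 events where 2.43 were expected (5.97, 10.5 and 7.73 times). These are few events from a shallow viewpoint. The negative binomial test gave adjusted p = 0.0411 and 0.00159, but neither window was called without library b, nor the first without library a.

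Gtf2e2, the small subunit of TFIIE, met the window around the start of the helicase gene Wrn and of Purg at chr8:34495000-34499999, 345 kb upstream, with 2, 1 and 6 events where 0.783 were expected (11.1, 3.35 and 19.7 times). Med7 met the start of Clint1, a gene of clathrin transport, 584 kb upstream at chr11:45665000-45669999 with 3, 4 and 2 events where 0.676 were expected (18.2, 15.5 and 7.89 times). Each rests on 9 events, and the ratios of Gtf2e2 lay far apart between libraries. The negative binomial test gave adjusted p = 0.0470 and 0.0360, and the Gtf2e2 call was lost without library a or c and the Med7 call without any of the libraries.

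Med6 met 2 distant windows downstream. The farther, at chr12:81745000-81749999, lay 948 kb away at the starts of Erh and Slc39a9 and held 5, 8 and 12 events where 2.70 were expected (9.40, 7.39 and 11.0 times). The nearer, at chr12:81870000-81874999, lay 824 kb away and held 7, 5 and 9 events where 2.17 were expected (16.4, 5.75 and 10.3 times). In the nearer window 1 fragment shared an identical run of 30 bases with the Med6 viewpoint, and the part of this in the count was not tested. No other called window of the members had such a run. The negative binomial test gave adjusted p = 0.0327 and 0.0275, and both calls were lost without library a or c.

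Further contacts lay in or at single genes. Taf1c of SL1 met chr8:121935000-121939999 in Mlycd, a malonyl-CoA decarboxylase gene, 191 kb downstream, with 38, 43 and 51 events where 24.3 were expected (5.93, 4.77 and 5.72 times). Med20_Bysl met an intronic stretch of Ccnd3, for cyclin D3, which acts in the divisions of red cell precursors, at chr17:47645000-47649999, 101 kb upstream, with 30, 26 and 25 events where 16.7 were expected (6.28, 4.32 and 4.20 times). Med1_b met the start of Cdk12, a kinase of the polymerase II tail, 7.13 kb upstream at chr11:98060000-98064999, with 15, 23 and 21 events where 16.4 were expected (3.80, 3.72 and 3.33 times). In this order the negative binomial test gave adjusted p = 0.0147, 0.0253 and 0.0423. The Taf1c call was lost when every count was kept in the dispersion. The Med20_Bysl call was lost without library a, and the Med1_b call without any of the libraries and also with the top 1% of counts left out. The other viewpoint of Med1 had no called window.

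The remaining windows were mostly between genes. Ptcd3_Polr1a met chr6:72105000-72109999, 248 kb downstream, with 12, 39 and 34 events where 14.9 were expected (4.82, 6.47 and 5.33 times), and chr6:72110000-72114999 beside it with 24, 44 and 37 where 20.5 were expected (7.01, 5.31 and 4.22 times). Polr1d, shared by polymerases I and III, met chr5:147490000-147494999, 396 kb upstream, with 8, 7 and 11 events where 2.93 were expected (10.8, 6.86 and 9.38 times), and chr5:147515000-147519999, 371 kb upstream, with 6, 16 and 20 where 6.59 were expected (3.60, 6.99 and 7.60 times). None of these 4 windows holds an annotated gene. Rabl3_Gtf2e1, named for the large subunit of TFIIE, met chr16:38530000-38534999 in Poglut1, 993 kb upstream, with 1, 7 and 9 events where 1.72 were expected (2.53, 10.5 and 13.8 times) and so mainly in b and c. In this order the negative binomial test gave adjusted p = 0.0244, 0.0491, 0.0126, 0.0413 and 0.0441. Each of these 5 windows lost its call without at least 1 library.

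**Figure D4:**
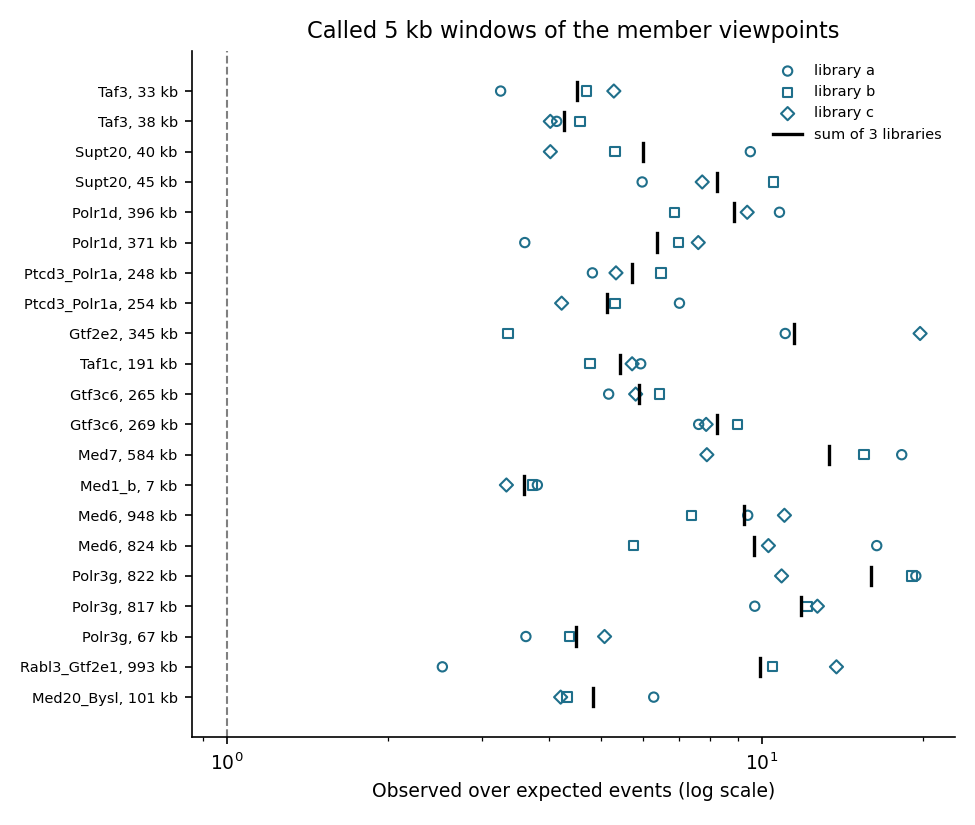
Observed over expected events on a log axis are plotted for the 21 called windows of machinery viewpoints, named with their distance, with 1 symbol per library and a bar for the sum of 3 libraries. All points lie above 1 (dashed line), which the call required, and the ratio in the sum runs from 3.59 for Med1_b to 16.0 for Polr3g.

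Of the 21 windows, 12 lay upstream and 9 downstream of the member gene. A protein-coding gene start lay in 6 of them, or 28.6%, beside 8.64% of the member windows tested, and a captured promoter in 4, or 19.0%, beside 3.65%. Over all viewpoints 31.1% of called and 8.28% of tested windows held a gene start, and 25.1% and 3.50% held a captured promoter. All viewpoints include the members here, and the differences were not tested. Their median distance was 265 kb and their median ratio 6.38, beside 215 kb and 6.96 over all called windows.

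Calls were spread over the complexes. Mediator had 5 called windows in 4 of 26 viewpoints tested, the polymerase subunits 7 in 3 of 25, and TFIID with SAGA 4 in 2 of 20. TFIIA, TFIIB, TFIIE, TFIIF and TFIIH had 2 in 2 of 12, TFIIIA and TFIIIC 2 in 1 of 6 and SL1 1 in 1 of 3. DSIF, the chaperones, the TFII-I family and Taf15 had none in 7. Of 53 other genes of this pathway that the naming rule leaves out, such as Tbp and Cdk9, 44 were viewpoints. They had 46 viewpoints that are not members, of which 41 were tested and 11, or 26.8%, had a called window, 16 windows in all, a share above that of the members and of all viewpoints. No test was made of that difference. Among them Tbp, the TATA-binding subunit of TFIID, and Ccnc, the cyclin of the Mediator kinase, had 3 windows each and Ubtf_a, for an activator of polymerase I, had 2.

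The fifth comparison asked whether the machinery promoters meet other promoters, and one another, more than distance predicts. Captured fragments are not listed as contacts, so the fragments 1 to 2 places from another captured promoter were used. Within 1 Mb, the machinery viewpoints had 9876 events there, or 1.43 ± 0.0953 times expectation (SD, n = 2), with 1.36, 1.49 and 1.50 in a, b and c. Over all viewpoints the ratio was 1.42 ± 0.0152. The members were lower than all viewpoints in a and higher in b and c. The ratio of the members fell to 1.14 when only the next fragment was used, where that of all viewpoints was 1.23, and was 1.55 against 1.49 with 1 to 4 places.

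Contacts with other members were compared with contacts of the same viewpoints at promoters that are no members. Within 1 Mb the ratios were 1.35 ± 0.112 and 1.43 ± 0.0943 (SD, n = 2), from 310 and 9567 events. From 1 to 10 Mb they were 3.34 ± 0.297 and 2.79 ± 0.0811, from 96 and 4966 events, and over 10 Mb they were 2.88 ± 0.519 and 3.50 ± 0.0457, from 88 and 8066 events. In a, b and c the ratios over 10 Mb were 2.51, 3.58 and 2.91 for members and 3.53, 3.50 and 3.43 for other promoters. The counts between members were small. From 1 to 10 Mb the members' ratio was 3.13, 4.25 and 2.85 in a, b and c, and the lowest of these lay close to the ratio of the other promoters. Within 1 Mb the order depended on the setting. Promoters of other members were the lower with only the next fragment (0.865 against 1.15), and the higher with 1 to 4 places (1.66 against 1.54), with scaling by fragment length (1.55 against 1.48) and off the deep stretches (1.53 against 1.43). From 1 to 10 Mb members were the higher in each library with 1 to 2 places, but with 1 to 4 places they were so in b alone. Over 10 Mb the mean ratio of members was the lower in each setting, at 2.81 against 3.00 with only the next fragment and 3.07 against 3.56 with 1 to 4 places. In library b alone the members were the higher there. No order between members and other promoters therefore held in every library and setting.

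**Figure D5:**
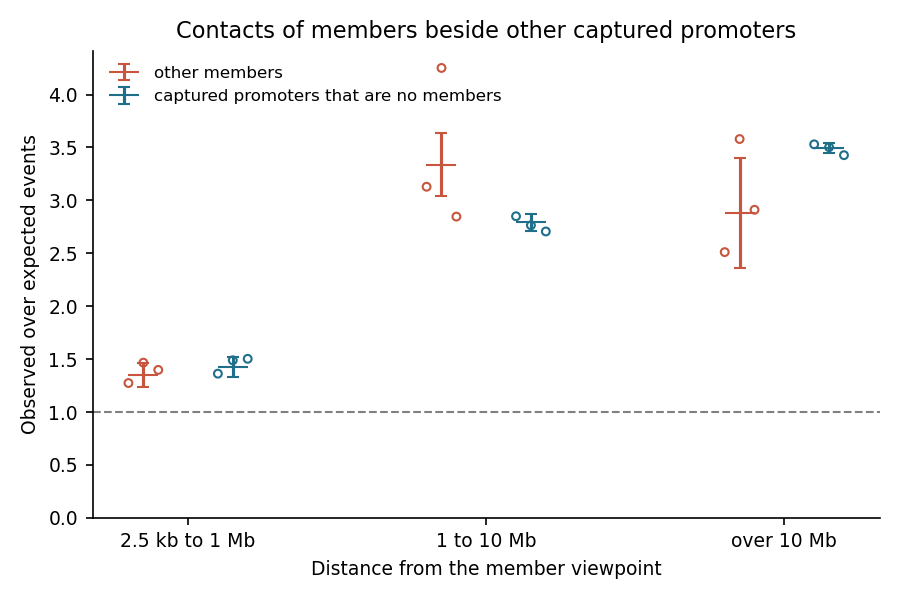
The ratio of observed to expected events at fragments 1 to 2 places from other captured promoters is plotted for machinery viewpoints in 3 classes of distance, for promoters of other members and of other genes. Open circles are libraries a, b and c from left to right, and horizontal marks with bars are the mean and SD between a and the mean of b and c (n = 2). From 1 to 10 Mb the members stand at 3.34 and the other promoters at 2.79, and over 10 Mb at 2.88 and 3.50.

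There were 19 pairs of machinery viewpoints within 1 Mb of each other, made of 32 viewpoints, and no window at the promoter of another member was called. Over all viewpoints, 492 of 93217 tested windows that hold a captured promoter were called, and for the members 4 of 1434. At such shares 19 pairs are too few for the absence of a call to tell of contact between members. The pair with the most events was Med17 and 4931406C07Rik_Taf1d, 26.1 kb apart, where Med17 had 9, 15 and 15 events beside the Taf1d promoter (2.22, 1.85 and 1.84 times expectation in a, b and c) and the reverse view had 3, 8 and 15 (0.748, 0.982 and 1.82 times). Gtf2h2 and Rad17_Taf9_Ak6, 159 kb apart, were above expectation in each library from both ends, with 5, 3 and 5 events (4.85, 1.76 and 3.26 times) and with 5, 11 and 6 (3.23, 4.17 and 2.40 times). Few events stand behind each of these values, and none was tested. Flanks of any other captured promoter within 1 Mb stood at 1.43 times expectation for the members. A value somewhat above 1 is thus not particular to a pair, here or in the pairs that follow.

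Other pairs above expectation in each library from both ends were Taf8 and Med20_Bysl, 109 kb apart, with 1, 6 and 7 events (1.01, 4.59 and 5.57 times) and 4, 7 and 6 (1.85, 2.55 and 2.22 times). Gtf3a and Polr1d, 129 kb apart, had 2, 3 and 6 events (2.17, 1.78 and 3.72 times) and 3, 5 and 3 (2.29, 2.76 and 1.45 times). Gtf2ird2 and Gtf2i, 131 kb apart, had 2, 2 and 1 events (5.81, 4.22 and 1.87 times) and 4, 4 and 5 (2.90, 1.57 and 2.08 times). The view of Rnf115_Polr3c from Polr3gl, 132 kb apart, was above in each library with 5, 10 and 8 events (1.88, 2.18 and 1.87 times), while the reverse view had 1, 4 and 1 (0.947, 2.30 and 0.546 times). The view of Ddx31_Gtf3c4 from Gtf3c5, 257 kb apart, had 4, 5 and 2 events where 3.72 were expected (7.84, 3.13 and 1.24 times), and the reverse view had 1 event in all. Supt7l_Slc4a1ap had 1, 3 and 2 events beside Gtf3c2, 347 kb away (2.10, 3.33 and 2.22 times), and the reverse view had 0, 2 and 2.

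Some neighbours were below expectation. Med12 and Taf1 on chromosome X, 259 kb apart and among the deepest members, had 2, 1 and 3 events where 17.4 were expected (0.498, 0.149 and 0.449 times) and, from Taf1, 1, 10 and 7 where 21.5 were expected (0.187, 1.24 and 0.870 times). Polr2g saw the flanks of Taf6l, 12.2 kb away, with 4, 7 and 4 events where 21.9 were expected (0.641, 0.912 and 0.504 times), while the view of Polr2g from Taf6l gave 1.16, 1.28 and 1.54 times. Supt5 saw Paf1_Med29, 53.9 kb away, at 0.685, 0.665 and 0.341 times expectation, and the reverse view gave 1.22, 1.93 and 2.35. For the last 2 pairs the views from either end lay on opposite sides of 1 in each library.

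For the remaining pairs each view held at most 4 events. Med16 and Polr2e, and Polr2a and Med11, had 0 events from either end where 1.31 to 2.75 were expected, too few to tell a lack of contact at this depth. The views between Med27 and Gtf3c5 or Ddx31_Gtf3c4 held 0 to 2 events in the sum, those of Taf12 and Med18 held 2 and 3, and those of Med24 with the viewpoints of Med1 held 0 to 4. Both Med1 viewpoints lay 0.511 kb apart and shared no testable flank.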

How the data were processed

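The members and gene lists were chosen with earlier results of these data known. Per the labels and the methods, the authors trimmed and aligned reads to mm9 (Trim Galore and Bowtie are named in the submitters' processing notes, with versions not given in the sources used here), counted unique ligation events with CCseqBasic, and used CaptureCompare for scaling. Each deposited value is a signal in reporters per 100000 cis reporters of a viewpoint in a library, in 3 unnamed columns.

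Counts of events were recovered by dividing a viewpoint's values in a library by the lowest that was not 0 there. All values came out whole within 0.01 of an event, and count tests were run on them. Library totals over uniquely named viewpoints were 18211066, 34393796 and 34199631 events. The genome was digested in silico at DpnII sites, with gene names and features from the GENCODE annotation of mm9.

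Expected counts were the mean of 50 distance bins times the viewpoint's total in range, for viewpoints with at least 1000 events. The negative binomial dispersion of each bin came from moments after removal of the top 0.1% of standardised counts. On counts simulated from the negative binomial model at the fitted dispersion, this estimate was too low and let more false calls through than the threshold allows. A correction for the counts left out was therefore added after the data had been seen and after the uncorrected calls were known. Removal of the top counts must lower the estimate in such simulated data. The simulation thus cannot tell whether the estimate was too low for the real counts. The correction lowered the number of calls, and both counts are given. Contacts over 1 Mb used 40 distance bins. Shares have exact binomial 95% intervals. Differences within a library and the upstream share of other viewpoints, whose strand came from the nearest start, within 20 kb, of a gene in the viewpoint name, were added after the values had been seen. Named members were those with a called window, the 5 extremes of depth, of share within 100 kb and of direction, pairs within 1 Mb and catalytic or backbone subunits. Python 3.11.15, numpy 2.4.6, pandas 2.3.3 and scipy 1.17.1 were used. The authors' own program for calling interactions was not run.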

Additional observations from a re-analysis of the deposited data

How the results depend on the processing

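The number of called windows of the machinery promoters depended on the dispersion. It was 21 as reported, 48 without the correction for the counts left out (an alternative chosen after seeing the data), 8 with no counts left out, 2487 with Poisson counts and 13 with the expectation scaled by fragment length, and 9 to 13 when a library was left out. With scaling by length the share called was 0.0331% for the members and 0.0575% over all viewpoints. In each of these settings but Poisson counts (6.33% against 5.59%) the members had the smaller share. Of the 21 windows, 18 stayed called with the highest 1% left out, 11 with scaling by fragment length and 8 with no counts left out. Single fragments gave 0 calls as reported, 2 without the correction, 2621 with Poisson counts, 5 with scaling by length and 0 to 1 when a library was left out. The share of member fragments called without the correction was 0.000465%, beside 0.00410% over all viewpoints. It was 0.609% against 0.611% with Poisson counts and 0.00116% against 0.00476% with scaling by length. With a library left out it was at most 0.000232%, beside 0.00163% to 0.00192%.

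The ratio of median depths was 1.33 without the deep stretches, 1.36 without joint names and 1.34 to 1.36 when a library was left out. The decay slope was -0.93 with viewpoints scaled to the same total, -0.89 without the deep stretches and -0.87 to -0.85 when a library was left out. The upstream share was 48.5% from 10 kb to 1 Mb, 49.9% from 2.5 to 100 kb, 48.2% without joint names and 48.6% to 48.8% when a library was left out. The ratio at other promoters was 1.14 with the next fragment only, 1.55 with 1 to 4 places, 1.89 as a mean over viewpoints and 1.44 to 1.49 when a library was left out. Between members within 1 Mb it was 0.865 with the next fragment only, 1.66 with 1 to 4 places, 1.55 with scaling by length, 1.53 without the deep stretches and 1.35 to 1.43 when a library was left out. From 1 to 10 Mb it was 3.00 with 1 to 4 places, 3.67 without the deep stretches and 2.94 to 3.87 when a library was left out, and over 10 Mb 2.78 to 3.25. The causes of these moves were not tested. Viewpoints under 1000 events were not tested. With a minimum of 5000 events, 72 members were tested and 21 windows were called, or 0.0732%, beside 0.0961% over all viewpoints. Of these 21 windows, 17 were among the 21 called at the minimum of 1000. The 5 deepest members had no called window.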
